A study of Mus musculus with 6 samples.

Results

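The aminoacyl-tRNA synthetases are represented here by 36 genes, 20 for cytosolic enzymes and 16 for mitochondrial enzymes. They were chosen by gene symbol. All 36 were among the 24421 genes of the count table, and all 36 passed the filter on low counts. Expression was measured by RNA sequencing of polyadenylated RNA from engineered skeletal muscle, made by casting C2C12 cells, a mouse myoblast line, in type I collagen and differentiating them. Constructs received TNF-alpha, an inflammatory cytokine, at 100 ng/mL for 72 h, or the vehicle, phosphate-buffered saline. Each group had 3 constructs, and both came from the same cell line, collagen and differentiation medium. The labels call them biological replicates and name no separate cultures. The p-values therefore reflect only how much these 6 constructs varied, which may be technical.

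An aminoacyl-tRNA synthetase joins an amino acid to its tRNA, the step that fixes the meaning of each codon. Cytosol and mitochondria use separate sets of these enzymes, and nuclear genes encode both sets. By name, the mitochondrial genes end in a 2. A few genes do not follow this plan. Gars and Kars each give rise to both a cytosolic and a mitochondrial enzyme, Eprs encodes a fused enzyme for glutamate and proline, and Farsa and Farsb encode the subunits of 1 cytosolic enzyme for phenylalanine. Mitochondria charge glutamine through a glutamyl-tRNA amidotransferase and have no partner of Qars. In the cytosol, the enzymes encoded by Dars, Eprs, Iars, Kars, Lars, Mars, Qars and Rars sit in a multi-synthetase complex with scaffold proteins. Many cytosolic synthetase genes are known targets of ATF4, the transcription factor of the amino acid response, which binds the C/EBP-ATF response element.

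Libraries held 81713008 to 93533748 counts. Differentiated muscle markers were present in both groups. The summed level of 10 such genes was 10187 to 11779 CPM (counts scaled to library size with TMM factors) in vehicle libraries and 7926 to 8953 CPM in TNF-alpha libraries, and 8 of the 10 fell, while Myog rose. Of 8 proliferation genes 7 fell, from a summed 386 to 533 CPM to 141 to 224 CPM. By the same test, given below, 27.6% of all genes tested rose and 27.9% fell. The 8 defining markers of leukocytes, endothelium and epithelium together reached at most 0.955 CPM in any library. Ptprc was at 0 in the TNF-alpha libraries. The part of these shifts in the synthetase results was not tested. In such bulk RNA, fewer cells of a type and less RNA per cell cannot be told apart.

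Because the synthetase promoters bear on the ATF4 pathway, the sequences of those that hold the response element are shown first. RefSeq windows from 250 bases before to 50 after the transcription start (GRCm38.p6) were found for 27 of the 36 genes, 13 cytosolic and 14 mitochondrial. The genes without a window were Cars, Hars, Lars, Nars, Rars, Vars, Wars, Hars2 and Pars2. The element was searched as TGATGNAAN on both strands. It occurred in 5 of the 13 cytosolic windows (Aars, Gars, Iars, Tars and Yars), in 0 of the 14 mitochondrial windows, and in 4.50% of the 27025 genes with windows. For Tars, Aars and Gars the 150 bases before the start are given. For Iars and Yars, whose match lies just after the start, 30 bases around it are given. Sars is shown as a gene whose transcript rose and whose window holds no match. Capitals mark the match, and all sequences read 5′ to 3′ on the gene's strand.
Tars (chr15:11399659-11399808, minus strand): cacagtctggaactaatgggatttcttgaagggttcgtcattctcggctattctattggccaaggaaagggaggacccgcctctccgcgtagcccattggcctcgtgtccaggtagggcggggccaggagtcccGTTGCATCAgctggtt
Aars (chr8:111033692-111033841, plus strand): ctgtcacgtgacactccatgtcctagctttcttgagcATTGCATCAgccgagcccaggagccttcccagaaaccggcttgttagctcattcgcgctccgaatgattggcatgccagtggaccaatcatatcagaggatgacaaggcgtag
Gars (chr6:55037851-55038000, plus strand): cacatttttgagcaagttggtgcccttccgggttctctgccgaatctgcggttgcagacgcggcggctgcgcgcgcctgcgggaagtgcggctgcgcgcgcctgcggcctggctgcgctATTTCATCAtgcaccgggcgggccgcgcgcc
Iars (chr13:49682126-49682155, plus strand): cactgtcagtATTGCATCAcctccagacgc
Yars (chr4:129189896-129189925, plus strand): cgagctcagcTGATGCAACccgacgggact
Sars (chr3:108445260-108445409, minus strand): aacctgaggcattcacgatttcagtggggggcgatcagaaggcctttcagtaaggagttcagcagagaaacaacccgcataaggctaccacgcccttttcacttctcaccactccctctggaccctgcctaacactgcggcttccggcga

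Counted from the start, the match began at -16 in Tars, -113 in Aars and -31 in Gars. Aars held another match that began at 9, outside the stretch shown. Those in Iars and Yars began at 7 and 4. Of these 5 genes only Tars rose with TNF-alpha by the test below, and Farsa and Sars rose without a match in their windows. Cars and Wars also rose but had no window to search. A window without a match does not show that the gene lacks the element elsewhere. Other motifs occurred in both classes, the E-box mostly in cytosolic windows. The E-box CACGTG occurred in 4 of the 13 cytosolic windows and 1 of the 14 mitochondrial windows (8.09% of all genes). The ETS site CCGGAAG occurred in 5 and 4 (9.93%), and the NRF1 core GCGCANGCG in 3 and 4 (7.03%), each searched on both strands. Matches of different motifs did not overlap in any of these windows, and a match describes letters only.

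Cytosolic synthetase transcripts were more abundant than mitochondrial ones. Levels between genes were compared per length, as mean CPM per kilobase of the union of annotated exons. In vehicle libraries the cytosolic median was 29.4 CPM per kilobase, with a range from 13.7 (Qars) to 83.2 (Gars). The mitochondrial median was 3.26, from 0.906 (Mars2) to 10.1 (Iars2), so the lowest cytosolic gene lay above the highest mitochondrial gene. The order of the classes was the same per kilobase of the mRNA with the longest coding sequence. On that scale the cytosolic genes ran from 29.6 (Farsb) to 115 (Sars) and the mitochondrial genes from 0.906 (Mars2) to 23.0 (Lars2). The position of a gene within its class depends on the length used.

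Of the 36 synthetase transcripts, 11 passed the test for a change with TNF-alpha, beside 55.5% of all genes tested. With 3 libraries per group, not passing does not show that a transcript stayed unchanged. Of the 20 cytosolic genes, 5 rose (Cars, Farsa, Tars, Sars and Wars), 2 fell (Hars and Kars) and 13 did not pass (quasi-likelihood test in edgeR, with p adjusted after Benjamini and Hochberg and held to 0.05). Of the 16 mitochondrial genes, 1 rose (Pars2), 3 fell (Ears2, Hars2 and Tars2) and 12 did not pass. Over all 15792 genes tested, 27.6% rose and 27.9% fell. The cytosolic share that rose, 25%, was thus near the background. The cytosolic share that fell was 10%, and the mitochondrial shares were 6.25% risen and 18.8% fallen. The median log2 fold change was 0.05 in cytosolic genes and -0.02 in mitochondrial genes, beside 0.00 over all genes. These counts rest on few libraries. Fallen mitochondrial genes numbered 1 without TNF-alpha replicate 2 or 3, and 4 without TNF-alpha replicate 1. Risen mitochondrial genes numbered 0 without vehicle replicate 1 or TNF-alpha replicate 3, and fallen cytosolic genes 1 without vehicle replicate 1 or 3 or TNF-alpha replicate 2. The mitochondrial median was -0.12 without TNF-alpha replicate 1 and 0.06 without TNF-alpha replicate 2. The largest change among the 36 was 0.57, and the median absolute change over all genes tested was 0.36. A maximum and a median are unlike measures, and the median absolute change of the members was not computed.

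**Figure D1:**
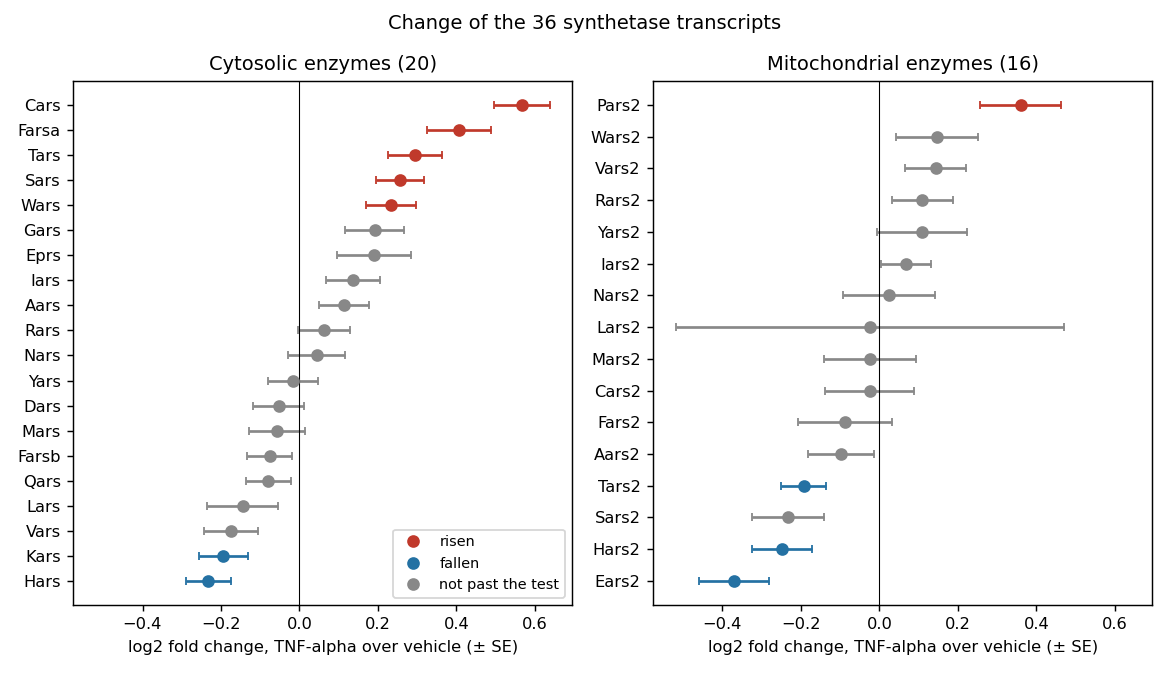
Log2 fold change of TNF-alpha over vehicle (x axis, edgeR estimate, bars ± SE) for each cytosolic (left) and mitochondrial (right) synthetase gene, coloured by whether it passed the test. Changes run from -0.37 (Ears2) to 0.57 (Cars), and the bar of Lars2 is the widest.

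The cytosolic enzymes that rose charge cysteine, phenylalanine, threonine, serine and tryptophan. Cars, encoding the cysteinyl enzyme (GRCm38 chromosome 7, 143557230 to 143600090, minus strand), had 107.7, 105 and 107.7 CPM in vehicle libraries and 145, 159 and 172 CPM in TNF-alpha libraries. The groups did not overlap. All 3 TNF-alpha libraries lay above all 3 vehicle libraries in 8 of the 20 cytosolic genes, which held for 32.6% of all genes tested. The rise of Cars was 1.48-fold (log2 fold change 0.57 ± 0.07 SE, adjusted p = 2.01e-04).

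Farsa, the catalytic subunit gene of the cytosolic phenylalanyl enzyme (chromosome 8, 84856989 to 84869257, plus strand), had 116, 119 and 104.5 CPM with vehicle and 162, 135 and 153 CPM with TNF-alpha. Every TNF-alpha library was above the highest vehicle library (log2 fold change 0.41 ± 0.08, adjusted p = 0.00282). Its partner subunit Farsb did not pass the test. Farsb had 60.8, 59.7 and 60.3 CPM with vehicle and 59.8, 54.95 and 56.7 CPM with TNF-alpha, with groups that overlapped (-0.08 ± 0.06, adjusted p = 0.280). The difference between the subunits was not tested.

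Tars, the threonyl enzyme gene whose promoter is shown above (chromosome 15, 11382301 to 11399665, minus strand), had 222, 206 and 212 CPM with vehicle and 248, 255 and 281.5 CPM with TNF-alpha. Its groups did not overlap (0.29 ± 0.07, adjusted p = 0.00603). Tarsl2, a paralog of Tars that encodes another threonyl enzyme, was at 14.7 and 13.9 CPM and did not pass (-0.08 ± 0.11, adjusted p = 0.563).

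Sars, which encodes the seryl enzyme and also supplies the charged tRNA for selenocysteine (chromosome 3, 108424865 to 108445209, minus strand), went from 222, 208 and 215 CPM to 248, 253 and 269 CPM, without overlap (0.26 ± 0.06, adjusted p = 0.00677). Wars, the tryptophanyl enzyme gene, known as induced by interferon gamma (chromosome 12, 108860030 to 108894174, minus strand), went from 55.6, 54.5 and 57.6 CPM to 63.4, 63.2 and 70.6 CPM. Its 3 TNF-alpha libraries were the highest of the 6 (0.23 ± 0.06, adjusted p = 0.0125). Without TNF-alpha replicate 3, the highest library, the Wars change was 0.18 with an adjusted p of 0.0650.

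Among cytosolic genes that fell, Hars encodes the histidyl enzyme and lies head to head with its mitochondrial counterpart Hars2 on chromosome 18 (Hars 36766528 to 36783205, minus strand, and Hars2 36783008 to 36792562, plus strand). Hars had 73.4, 73.1 and 68.3 CPM with vehicle and 62.9, 59.7 and 60.3 CPM with TNF-alpha (-0.23 ± 0.06, adjusted p = 0.00779). Hars2 had 36.2, 33.2 and 31.7 CPM with vehicle and 30.3, 27.1 and 27.6 CPM with TNF-alpha (-0.25 ± 0.08, adjusted p = 0.0212). In both genes all TNF-alpha libraries lay below all vehicle libraries. The 2 genes share 195 exonic bases on opposite strands, and the library kit keeps strand but the counting options are not known here, so reads of that stretch cannot be assigned. The Hars2 call did not hold without vehicle replicate 1 (adjusted p = 0.0774), TNF-alpha replicate 2 (0.0656) or TNF-alpha replicate 3 (0.0734).

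Kars, which encodes both the cytosolic and the mitochondrial lysyl enzyme (chromosome 8, 111993443 to 112011323, minus strand), had 149, 141.5 and 152 CPM with vehicle and 137, 126 and 124 CPM with TNF-alpha. Its groups did not overlap (-0.19 ± 0.06, adjusted p = 0.0274). The call was lost without vehicle replicate 1 (adjusted p = 0.0657), vehicle replicate 3 (0.0637), TNF-alpha replicate 2 (0.0755) or TNF-alpha replicate 3 (0.102). Gars, the other gene with a dual product, had 262, 248 and 268 CPM and then 274, 292 and 323 CPM (0.19 ± 0.08, adjusted p = 0.0559). Its groups did not overlap. Gars passed without TNF-alpha replicate 1 (adjusted p = 0.0219), with DESeq2 (0.0423) and with the filter of 1 CPM in 3 libraries (0.0491).

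Of the mitochondrial genes, Ears2, encoding the glutamyl enzyme (chromosome 7, 122037213 to 122067263, minus strand), had the largest fall. Its libraries held 11.6, 12.3 and 13.0 CPM with vehicle and 9.64, 9.18 and 9.73 CPM with TNF-alpha. The groups did not overlap (-0.37 ± 0.09, adjusted p = 0.00697), and in 4 of the 16 mitochondrial genes all TNF-alpha libraries lay below all vehicle libraries, which held for 31.9% of all genes tested. Counts of Ears2 carried decimals in all 6 libraries, and the gene shares 89 exonic bases with Ubfd1 on the opposite strand.

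Pars2, the prolyl enzyme gene (chromosome 4, 106651069 to 106655282, plus strand), rose. It had 5.91, 6.53 and 6.23 CPM with vehicle and 8.38, 7.47 and 8.10 CPM with TNF-alpha, with no overlap (0.36 ± 0.10, adjusted p = 0.0159). Without vehicle replicate 1 its adjusted p was 0.0587, and without TNF-alpha replicate 3 it was 0.0590. Tars2, the threonyl enzyme gene (chromosome 3, 95739976 to 95760206, minus strand), had 47.4, 45.9 and 48.2 CPM with vehicle and 42.7, 40.1 and 41.1 CPM with TNF-alpha. Its TNF-alpha libraries were the 3 lowest (-0.19 ± 0.06, adjusted p = 0.0186), and the adjusted p was 0.0548 without TNF-alpha replicate 2 and 0.0607 without TNF-alpha replicate 3.

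**Figure D2:**
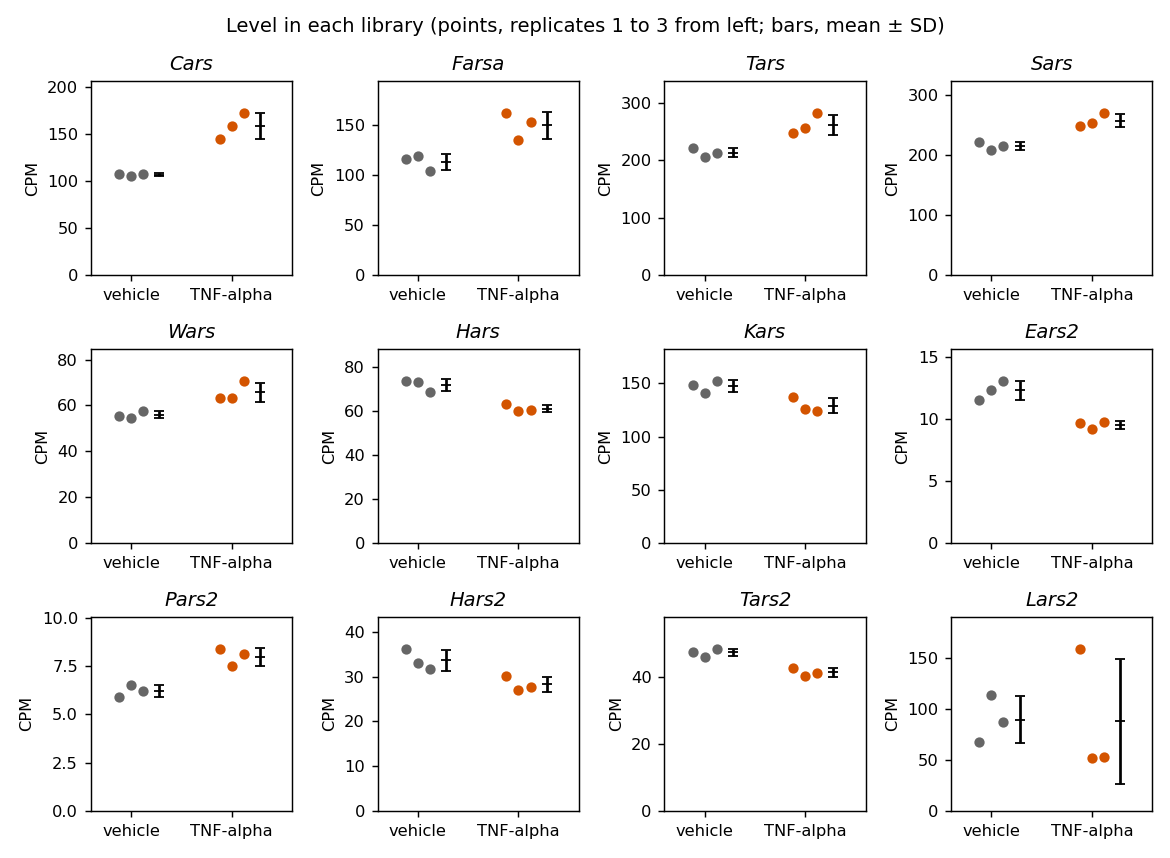
Level in CPM (y axis, from 0) of the 11 synthetase genes that passed the test and of Lars2, in each vehicle and TNF-alpha library (points, replicates 1 to 3 from left), with mean ± SD. The groups do not overlap in any of the 11 genes, while the TNF-alpha libraries of Lars2 run from 52.3 to 159 CPM.

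Lars2, the mitochondrial leucyl enzyme gene, varied most between libraries of a group. It had 67.8, 113 and 87.3 CPM with vehicle and 159, 52.3 and 53.0 CPM with TNF-alpha. The groups overlapped because replicate 1 was the highest of all 6 libraries and the other TNF-alpha libraries were the lowest (-0.02 ± 0.49, adjusted p = 0.972). Without TNF-alpha replicate 1 the log2 fold change of Lars2 was -0.76 with an adjusted p of 0.0326.

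The same library stood apart in the mitochondrial set more widely. Among the TNF-alpha libraries, replicate 1 had the highest level of 15 of the 16 mitochondrial genes, Ears2 being the exception, and of 6 of the 20 cytosolic genes. Over all genes tested it was the highest in 39.7%. The cytosolic set leaned to another library. TNF-alpha replicate 3 was the highest in 13 of the 20 cytosolic genes, beside 25.6% of all genes tested. In 10 mitochondrial genes TNF-alpha replicate 1 lay above every vehicle library (Cars2, Iars2, Lars2, Mars2, Nars2, Pars2, Rars2, Vars2, Wars2 and Yars2). The number was 3 for TNF-alpha replicate 2 and 2 for replicate 3. Such shares were not computed for the cytosolic genes or for all genes tested, so these counts are a description. The median mitochondrial gene stood 0.18 above the vehicle mean on the log2 scale in replicate 1, and at -0.14 and -0.09 in replicates 2 and 3. The cytosolic medians were 0.01, 0.00 and 0.12. Replicate 1 was also the deepest of the 6 libraries, at 93533748 counts, though vehicle replicate 2 was close to it at 93030292. Among the TNF-alpha libraries it had the lowest summed level of proliferation genes, 141 CPM against 224 and 193. The part of depth and of proliferation genes in this pattern was not tested.

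Summed over the 16 genes, mitochondrial synthetase transcripts took 406, 454 and 416 CPM in vehicle libraries and 511, 367 and 376 CPM in TNF-alpha libraries. Without Lars2 the TNF-alpha sums were 352, 315 and 323 CPM, beside 339, 340.5 and 329 CPM with vehicle, so the groups overlapped either way. The 20 cytosolic genes together took 3220, 3081 and 3182 CPM with vehicle and 3273, 3335 and 3593 CPM with TNF-alpha. Here all TNF-alpha libraries were higher. The ratio of the cytosolic to the mitochondrial sum was 7.92, 6.79 and 7.65 with vehicle and 6.40, 9.09 and 9.56 with TNF-alpha, with overlap from replicate 1.

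**Figure D3:**
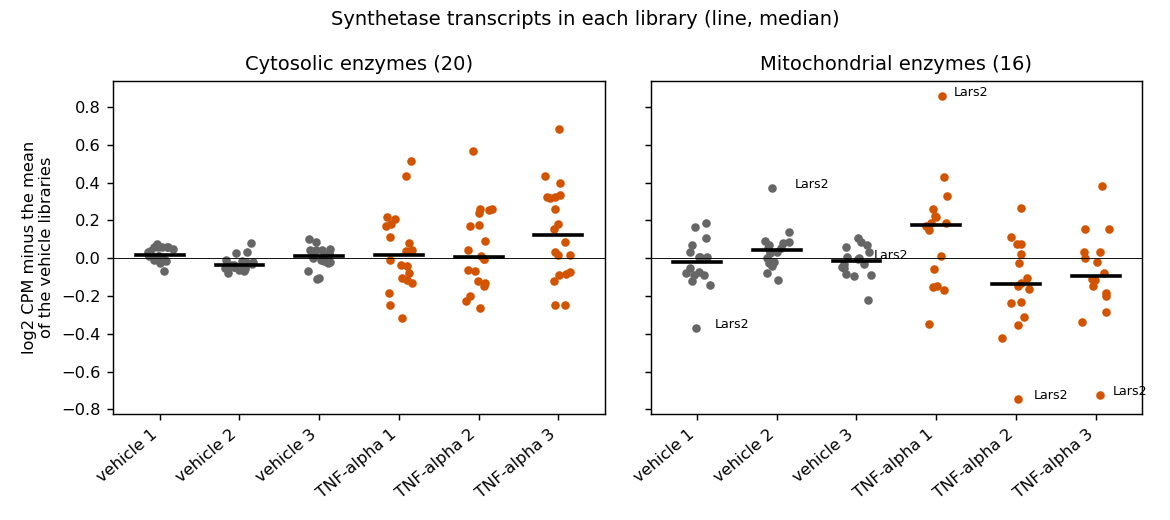
Level of each cytosolic (left) and mitochondrial (right) synthetase gene in each library, as log2 CPM minus the gene's mean over the vehicle libraries (y axis, points for genes, lines for medians). The mitochondrial median is 0.18 in TNF-alpha replicate 1 and below 0 in the other TNF-alpha libraries.

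Among the cytosolic genes, those of the multi-synthetase complex and the others were counted apart. Of the 8 complex genes 0 rose and 1 fell (Kars) by edgeR's test, with a median log2 fold change of -0.05. Over all genes tested 27.6% rose and 27.9% fell. The number of complex genes that rose was also 0 at an unadjusted p under 0.05, which 30.4% of all genes passed upward, and 0 with DESeq2, with which 28.1% of all genes rose. Eprs had 277.5, 259 and 261 CPM with vehicle and 260, 317 and 333 CPM with TNF-alpha, a wide spread with overlapping groups (0.19 ± 0.09, adjusted p = 0.118). Without TNF-alpha replicate 1 the log2 fold change of Eprs was 0.29 with an adjusted p of 0.00735. The other 7 complex genes lay between -0.19 (Kars) and 0.14 (Iars). Lars was at -0.14, Qars at -0.08, Mars at -0.06, Dars at -0.05 and Rars at 0.06 on the log2 scale. Mars shares 68 exonic bases with Ddit3, an ATF4 target, on the opposite strand. Of the 12 cytosolic genes outside the complex 5 rose and 1 fell, with a median of 0.15. The difference between these groups was not tested.

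The remaining cytosolic genes outside the complex did not pass. Vars, the valyl enzyme gene, had 130.4, 135 and 145 CPM with vehicle and 115, 119 and 129.6 CPM with TNF-alpha, without overlap (-0.17 ± 0.07, adjusted p = 0.0584). Vars passed without TNF-alpha replicate 3 (adjusted p = 0.0429), with upper-quartile scaling (0.0292) and with the replicate number as a block (0.0348). Aars, with the response element in its promoter, had groups without overlap at 264 to 279 and 282 to 310 CPM (0.11 ± 0.06, adjusted p = 0.159). Aars shares 1326 exonic bases with Exosc6 on the same strand, so part of its count may belong to either gene. Nars and Yars had log2 fold changes of 0.04 and -0.02.

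Most mitochondrial genes did not pass either. Sars2, the seryl enzyme gene, had 11.2, 11.3 and 10.9 CPM with vehicle and 9.89, 8.70 and 9.80 CPM with TNF-alpha, without overlap (-0.23 ± 0.09, adjusted p = 0.0561). Its adjusted p was 0.0340 with upper-quartile scaling and 0.0404 with DESeq2. Vars2 lay above vehicle in all TNF-alpha libraries, at 18.6 to 19.4 against 16.3 to 18.5 CPM (0.14 ± 0.08, adjusted p = 0.148). The others had overlapping groups. Several share exon sequence with genes on the opposite strand, the longest stretch being 2034 bases of Iars2 with Rab3gap2. Wars2 was at 0.15, Rars2 and Yars2 at 0.11, Iars2 at 0.07 and Nars2 at 0.02 on the log2 scale. Cars2 and Mars2 were at -0.02, Fars2 at -0.09 and Aars2 at -0.10.

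Each cytosolic gene was then set against its mitochondrial counterpart within each library, in 17 pairings by amino acid. The ratio of counts does not depend on how libraries are scaled. It was higher in every TNF-alpha library than in any vehicle library in 6 pairings and lower in 1, and 10 pairings overlapped. Of single genes 32.6% lay above and 31.9% below without overlap, and the share for ratios of other gene pairs was not computed, so these counts are a description. The 7 without overlap each had an exact two-sided permutation p of 0.1, the smallest that 3 against 3 libraries allow. After adjustment over the 17 it was 0.243. No pairing could have passed 0.05 whatever its values, so this test does not decide whether a ratio changed. Eprs and Fars2 each enter more than 1 pairing, so the pairings are not all separate.

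For cysteine the Cars to Cars2 ratio of counts was 8.68, 8.03 and 9.33 with vehicle and 10.3, 14.4 and 15.1 with TNF-alpha, a change of 0.59 in the mean log2 ratio (n = 3 per group). Cars2 itself did not pass, at 12.4 ± 0.80 and 12.1 ± 1.64 CPM (SD, n = 3). For glutamate the Eprs to Ears2 ratio was 24.0, 21.1 and 20.04 and then 26.9, 34.6 and 34.2, a change of 0.55. For serine the Sars to Sars2 ratio was 19.9, 18.3 and 19.7 and then 25.1, 29.1 and 27.4, a change of 0.49.

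Threonine, phenylalanine and alanine were the other pairings with higher ratios in every TNF-alpha library. The ratio of Tars to Tars2 changed by 0.49, that of Farsa to Fars2 by 0.49 and that of Aars to Aars2 by 0.21 on the log2 scale. Valine was the 1 pairing with a lower ratio in every TNF-alpha library. The Vars to Vars2 ratio was 8.001, 7.96 and 7.82 with vehicle and 5.94, 6.40 and 6.75 with TNF-alpha, a change of -0.32. The smallest change was that of Farsb to Fars2, at 3.56, 3.90 and 4.69 and then 3.96, 4.32 and 3.85. Hars to Hars2 changed by 0.02, with 2.03 to 2.20 and 2.08 to 2.20 in the groups. Eprs to Pars2 changed by -0.18 with overlapping groups. In 1 library, TNF-alpha replicate 1, Lars was less counted than Lars2, at a ratio of 0.715.

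**Figure D4:**
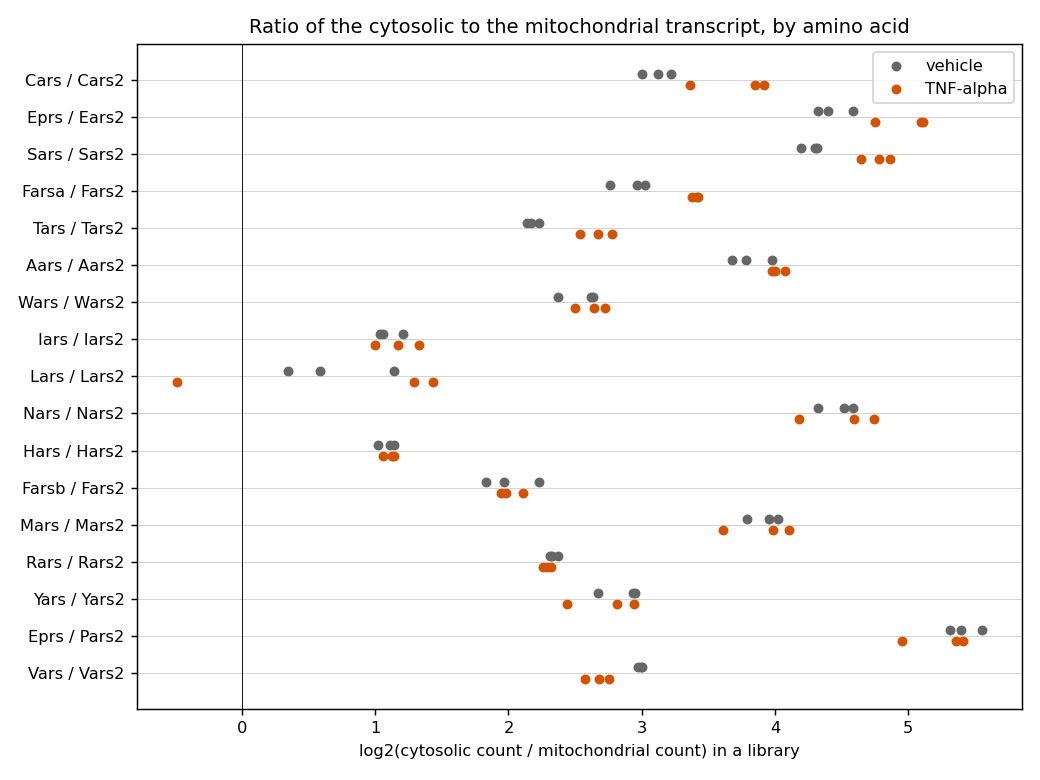
Log2 ratio of the cytosolic to the mitochondrial count in each library (x axis) for the 17 pairings (rows, ordered by the change with TNF-alpha), with vehicle and TNF-alpha libraries as separate points. The groups are apart in 6 pairings at the higher side and in Vars to Vars2 at the lower side.

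Other genes of tRNA charging, translation and the ATF4 response moved in several directions. Of 9 genes for the scaffold of the complex and for cytosolic elongation 7 fell and 1 rose (median log2 fold change -0.32). Of all genes tested 27.9% fell and 27.6% rose. Apart from Aimp1, the genes that fell were those of elongation (Eef1a1, Eef1a2, Eef1b2, Eef1d, Eef1g and Eef2), while the scaffold genes were split. The scaffold gene Aimp1 fell from 70.0, 63.3 and 67.3 CPM to 52.2, 51.6 and 52.3 CPM (-0.36 ± 0.06, adjusted p = 8.36e-04). Eef1e1, another scaffold gene, rose from 22.1 to 26.1 CPM on average (0.24 ± 0.08, adjusted p = 0.0366), and the scaffold gene Aimp2 did not pass (-0.05 ± 0.07, adjusted p = 0.566). Eef1a2, the elongation factor 1 alpha isoform of muscle and neurons, fell by a log2 value of 1.71 ± 0.18 (adjusted p = 9.6e-05). Eef1b2, an exchange factor subunit for elongation factor 1 alpha, fell by 0.57 ± 0.08 (adjusted p = 3.86e-04).

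Of 14 genes of mitochondrial charging and translation 2 rose, 2 fell and 10 did not pass (median -0.04). Each share was 14.3%, beside 27.6% risen and 27.9% fallen of all genes tested. The initiation factor gene Mtif3 rose by 0.32 ± 0.07 (adjusted p = 0.00319), and the translation factor gene Gfm2 fell by 0.16 ± 0.06 (adjusted p = 0.0496).

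Of 13 genes for tRNA proofreading, maturation and export 3 rose and 5 fell (median -0.08). These are shares of 23.1% and 38.5%, beside 27.6% and 27.9% of all genes tested. Dtd1, which removes D-amino acids from tRNA, fell from 10.95, 10.6 and 9.60 CPM to 5.08, 5.12 and 5.63 CPM (-0.98 ± 0.10, adjusted p = 8.01e-05). Aarsd1, a relative of the editing domain of the alanyl enzyme, fell by 0.59 ± 0.06 (adjusted p = 8.15e-05).

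In the list of eIF2 alpha kinases and the ATF4 response 7 of 15 genes rose, 2 fell and 6 did not pass (median 0.19). Of all genes tested 27.6% rose and 27.9% fell. Atf4 rose from 631, 592.5 and 685 CPM to 1144, 976 and 1070 CPM, without overlap (0.74 ± 0.09, adjusted p = 1.37e-04). Ddit3, a transcription factor gene of the stress response, rose by 0.69 ± 0.08 (adjusted p = 1.54e-04). Asns, encoding asparagine synthetase and a classical ATF4 target, did not pass (0.16 ± 0.12, adjusted p = 0.282). Eif2ak4, which encodes GCN2, the kinase that senses uncharged tRNA, did not pass either (0.23 ± 0.11, adjusted p = 0.105). Psat1, an enzyme gene of serine synthesis, fell by 0.65 ± 0.14 (adjusted p = 0.00601). Of the 5 cytosolic genes with the response element in their windows, the log2 fold changes were 0.29 for Tars, 0.19 for Gars, 0.14 for Iars, 0.11 for Aars and -0.02 for Yars.

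**Figure D5:**
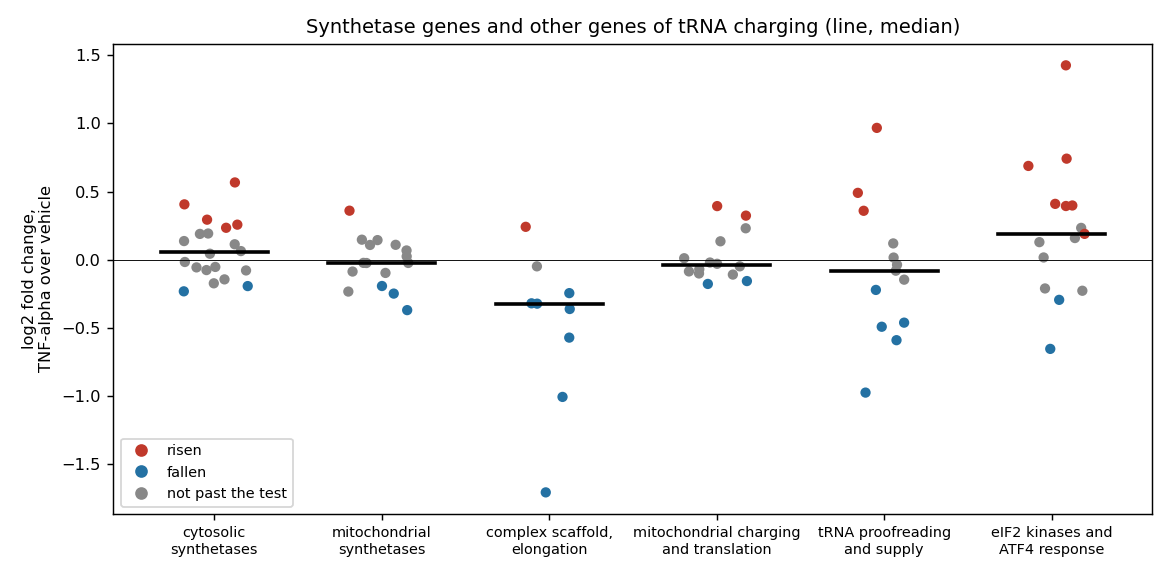
Log2 fold change of TNF-alpha over vehicle (y axis) for the synthetase genes and 4 other lists, of tRNA charging, translation and the ATF4 response. Points are genes, coloured by the test, and lines are medians. The medians are 0.05, -0.02, -0.32, -0.04, -0.08 and 0.19 from left to right.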

How the data were processed

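The values deposited by the authors are treated as estimated counts, because 20.1 to 21.0% of them per library have decimals. The design text describes integers. Tools named, per the submitters' processing notes, were TopHat2 2.1.1, Bowtie2 2.3.5.1, featureCounts (Subread 2.0.0) and DESeq2, and the builds mm10 and GRCm38, with no role given. Counting options, strand included, are not given in these sources. The library kit was a stranded one for mRNA, per the labels.

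Groups came from the sample titles. Counts were rounded, filtered with filterByExpr, scaled with TMM and tested with edgeR 4.0.16 in R 4.3.3 (glmQLFit, robust, group as the only term), on 15792 genes, with Benjamini-Hochberg adjustment over all of them. The tests had been planned for whole counts. Each SE is the absolute log2 fold change over the root of the F statistic. Positions and lengths come from GENCODE M21. The procedure was tested on simulated counts. Replicates differed by more than sampling noise (chi-square per degree of freedom 22.0 to 66.9).

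Members, gene lists, pairings and tests were chosen with earlier results of these data known. All 36 members are named. Values per library were given for up to 7 members per class with the largest change among those past the test with separate groups, and for the members of the 3 pairings with the largest change and the 1 with the smallest. From each of the 4 other lists, the 2 smallest p-values in the main direction and 1 in the other were named, with a set of fixed genes. Some of the genes this rule names are not reported here. Other values per library were chosen after being seen. Mymk is Tmem8c in the table.

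The alternatives tried were scaling by median ratios or by upper quartiles, filtering at 1 CPM in 3 libraries or not at all, DESeq2 1.42.0, limma-voom (limma 3.58.1), the replicate number as a block, and leaving out each library.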

Additional observations from a re-analysis of the deposited data

How the results depend on the processing

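Over the 36 members and 13 alternatives, 446 of 468 combinations kept the call or its absence, in 12 a call was lost, in 10 a call was gained, and 0 reversed. Of the 11 members past the test, 6 passed under every alternative run, namely Cars, Farsa, Tars, Sars, Hars and Ears2, and 20 of the other members passed under none. Leaving out 1 library moved the number of fallen cytosolic members between 1 and 2, of fallen mitochondrial members between 1 and 4, and of risen mitochondrial members between 0 and 1. Cytosolic members risen ran from 4 to 7. The mitochondrial median ran from -0.12 without TNF-alpha replicate 1 to 0.06 without TNF-alpha replicate 2, and the cytosolic median from 0.02 to 0.08. The cause was not tested, and fewer libraries also lower the power. With the replicate block, 5 cytosolic members rose and 3 fell, Vars being the added one. Samples with the same replicate number did not deviate together over all genes tested (correlations 0.043, -0.045 and -0.114). So few values cannot show whether such samples shared a culture or batch, and the labels name none. Leaving out 1 library, the change in log2 ratio ran from 0.49 to 0.77 for Cars to Cars2 and from -0.36 to -0.27 for Vars to Vars2. Mitochondrial members were counted less deeply, down to 492 to 783 counts for Pars2, and their median SE was 0.10 against 0.07 for cytosolic members.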
